A study of Mus musculus with 6 samples.

Results

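The genes described here take up, store, export or sense iron, and they were read in mast cells sorted from mouse skin. They are 10 named genes of the 47643 in the deposited count table: Tfr2, Tfrc, Steap3, Slc11a2, Slc11a1, Fth1, Ftl1, Slc40a1, Aco1 and Ireb2. All 10 were detected and passed the filter on low counts. They were selected on their function after the embryonic and adult values of these same libraries had been seen, so the difference between the groups is given for them as a description, with no test.

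The study sequenced poly(A) RNA of 3 embryonic and 3 adult libraries of skin mast cells to compare cells of a primitive and a definitive wave. All mice carried Cdh5CreERT2, a tamoxifen-inducible Cre recombinase driven by the promoter of Cdh5, an endothelial gene, and all were given 4-hydroxytamoxifen (4OHT) at embryonic day 7.5. Embryonic cells were collected at E16.5 with the gate CD45+ F4/80- CD64- ckit+ ST2+ and are described by the submitters as coming from yolk sac hemogenic endothelium. Adult cells, which the submitters call definitive, were collected with the gate CD45+ F4/80- CD64- ckit+ Fcer1+, at an adult age that the labels do not give in weeks, after an extra Dispase step that took off the epidermis. The labels do not say whether cells carrying the Cre label were sorted. Age, described origin, last gate marker and the Dispase step change together and cannot be told apart. The labels also do not say whether the libraries of a group came from separate animals, so the p-values below measure only the spread between libraries. Libraries held 34122162 to 49813523 counts in genes. A count of 3 corresponded to 0.0603 to 0.0849 CPM (counts per 1000000 of the TMM-scaled library).

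The sorted cells had the RNA of mast cells: the summed level of 10 mast cell markers was 125095.7 to 136962.0 CPM in the embryonic and 62149.6 to 64747.0 CPM in the adult libraries. That sum is carried by Cpa3, Hdc and Cma1. Of the 10 markers, 6 were higher in embryonic libraries and 2 in adult libraries, Ms4a2 and Mcpt4, both outside the rule for named genes. Markers of other cells differed too, except that the sum of 7 fibroblast markers overlapped. That sum was 827.2 to 949.8 CPM in the embryonic libraries and 945.7, 917.5 and 624.4 CPM in the adult replicates 1 to 3. It joined genes that moved opposite ways. Pdgfrb was at 267.1 to 275.8 CPM in the embryonic and 441.9 to 533.0 CPM in the adult libraries. Col3a1 was at 246.9 to 340.1 CPM in the embryonic and 25.2 to 136.9 CPM in the adult libraries. By the test, 2 of the 7 were higher in adult and 0 in embryonic libraries. The sum of the erythroid markers was 184.9, 152.2 and 329.4 CPM in the embryonic replicates 1 to 3 and 14.9 to 19.7 CPM in the adult libraries. The sum of 14 macrophage markers was 200.8, 265.5 and 106.2 CPM in the adult replicates 1 to 3 and 3.82 to 8.86 CPM in the embryonic libraries. Embryonic replicate 3 stood apart with 525.4 CPM of keratinocyte markers, against 56.2 and 112.2 CPM in the other embryonic libraries and 29.2 to 53.8 CPM in the adult libraries. Adult replicate 3 had the lowest macrophage sum and the lowest fibroblast sum of its group. Basophil markers summed to 719.3 to 899.5 CPM in the embryonic libraries against 389.7 to 486.8 CPM in the adult ones. Markers of cycling cells summed to 982.5 to 1194.2 CPM against 105.6 to 153.5 CPM, and 10 of 10 were higher in embryonic libraries. The part of any of these in the differences below was not tested. Folds are also given without a library where leaving it out moved them by over 1.5 times or ended a call.

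Most cells take up iron bound to transferrin, which binds the transferrin receptor at the surface and is carried into endosomes, where STEAP3 reduces the iron and DMT1 (Slc11a2) passes it to the cytosol. Iron that is not used is stored inside shells of ferritin heavy and light chains, and ferroportin (Slc40a1) is the known route of export from the cell. When iron is low, the iron regulatory proteins IRP1 (Aco1) and IRP2 (Ireb2) bind short hairpins in mRNA called iron-responsive elements: near the 5′ end of ferritin and ferroportin mRNA they block translation, and in the 3′ end of Tfrc mRNA they protect it from decay.

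The hairpins of the members are shown because they are the sites through which IRPs are known to act on these mRNAs. GENCODE M21 transcripts (GRCm38) were searched on the sense strand for a C, any 5 bases, the loop CAGTGN, and 5 bases that pair with the first 5, G-U pairs allowed. The 27 bases around each match are printed 5′ to 3′ with the loop in capitals.
Fth1 5′ UTR, chr19:9982733-9982759, plus strand: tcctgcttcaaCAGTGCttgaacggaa
Ftl1 5′ UTR, chr7:45459780-45459806, minus strand: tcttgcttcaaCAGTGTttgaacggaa
Slc40a1 5′ UTR, chr1:45925466-45925492, minus strand: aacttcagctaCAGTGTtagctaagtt
Tfrc 3′ UTR, element 1, chr16:32631220-32631246, plus strand: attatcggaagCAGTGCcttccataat
Tfrc 3′ UTR, element 2, chr16:32631599-32631625, plus strand: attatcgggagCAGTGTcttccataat
Tfrc 3′ UTR, element 3, chr16:32631664-32631690, plus strand: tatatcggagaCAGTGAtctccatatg
Tfrc 3′ UTR, element 4, chr16:32631711-32631737, plus strand: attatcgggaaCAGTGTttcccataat

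The elements of Fth1 and Ftl1 had 25 of 27 bases in common. Of 21594 genes searched, 0.144% held a match in the 5′ UTR and 0.593% in the 3′ UTR. Among the members, Fth1, Ftl1 and Slc40a1 had 1 match each and Tfrc had 4. These letters were not found in the windows searched for the other members, from which nothing is drawn. A match is a run of letters and was not tested as a binding site.

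Between the groups, 2 members were higher in every embryonic than in every adult library (Tfr2 and Aco1) and 5 were higher in every adult library (Tfrc, Slc11a2, Slc11a1, Fth1 and Ftl1). Steap3, Slc40a1 and Ireb2 overlapped. Over all 15111 genes tested, 34.5% were higher without overlap in embryonic and 35.5% in adult libraries. Since the members were picked with this contrast known, nothing is read from their count. The median log2 difference, embryonic minus adult, was -0.19 for the members and -0.02 for all genes tested.

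**Figure D1:**
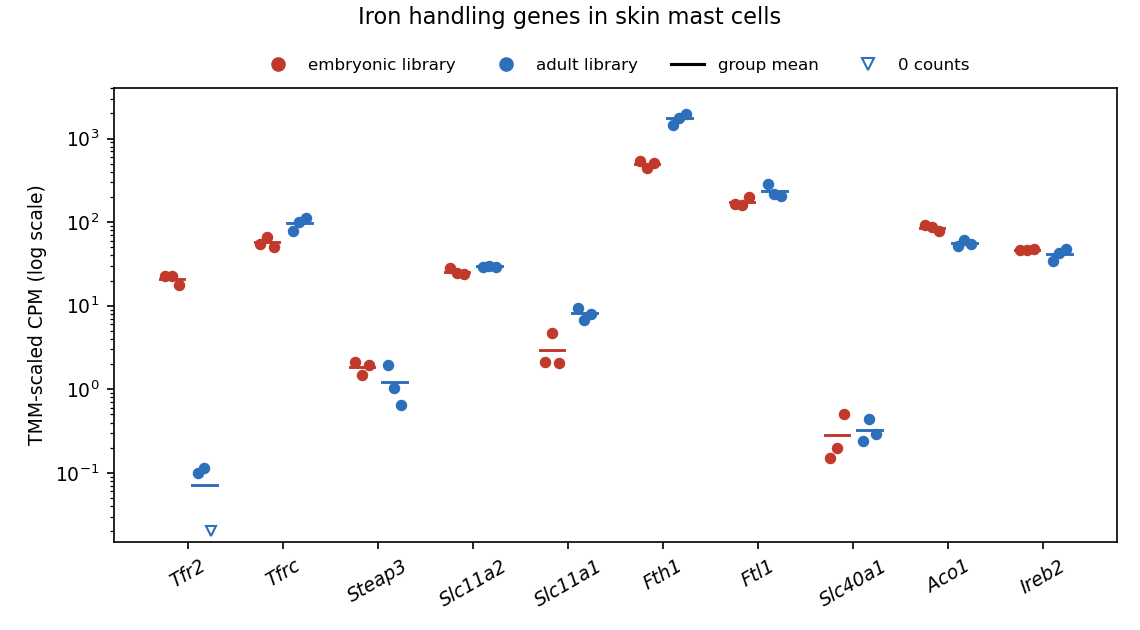
TMM-scaled CPM (log axis) of the 10 members in each library, embryonic in red and adult in blue, with the group mean as a bar; the open triangle is a library with 0 counts, drawn at an arbitrary height. Tfr2 lies at 17.6 to 22.9 CPM in the embryonic libraries and at 0 to 0.115 CPM in the adult ones, and Fth1 is the most abundant member in both groups.

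Among the receptors, Tfr2 separated the groups most widely. Transferrin receptor 2 binds transferrin less tightly than the first receptor and is known from hepatocytes and erythroid precursors (chr5:137569840-137587481, plus strand, ENSMUSG00000029716.13). Its level was 22.9, 22.7 and 17.6 CPM in the embryonic replicates 1 to 3, from 1065, 802 and 846 counts. In adult replicates 1 to 3 it was 0.101, 0.115 and 0 CPM, from 5, 5 and 0 counts. Every embryonic library lay far above every adult library, and the adult library at 0 allows up to 0.0789 CPM. The ratio of summed counts, scaled to library size, was 273.9 with a 95% exact interval of 148.7 to 571.9 that covers counting error only. The fitted log2 difference was 8.07 ± 0.42 (SE, n = 3 per group) and 7.58 without adult replicate 3. As in any bulk sample, fewer cells with the RNA and less RNA per cell cannot be told apart.

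Tfr2 is also a gene of red cell precursors, so erythroid markers are given beside it. Of 8 tested erythroid markers, 6 were higher in embryonic libraries and 1 in adult libraries. The most abundant were the adult-type globins Hbb-bs, Hbb-bt and Hba-a1, and Hbb-bs was at 82.0, 67.5 and 146.0 CPM in the embryonic replicates 1 to 3 and at 1.53 to 5.11 CPM in the adult libraries. Slc4a1, a red cell membrane gene, outside the rule for named genes, had 0, 7 and 74 counts in embryonic replicates 1 to 3. It had 0 counts in each adult library. Klf1 and Epor, also outside the rule, were called higher in embryonic libraries. Klf1 had 193, 87 and 196 counts in the embryonic and 11, 6 and 1 counts in the adult replicates 1 to 3. Epor was at 18.7 to 26.1 CPM in the embryonic and 8.38 to 9.34 CPM in the adult libraries. In embryonic replicates 1 to 3, Tfr2 was at 22.9, 22.7 and 17.6 CPM beside erythroid sums of 184.9, 152.2 and 329.4 CPM. The embryonic gate asked for CD45, ckit and ST2, and how much erythroid RNA it let through was not tested. The part of erythroid RNA in the difference between the groups was not tested.

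Tfrc, the receptor that most cells use (chr16:32608920-32632794, plus strand, ENSMUSG00000022797.15), went the other way. It was at 54.6, 66.8 and 50.5 CPM in the embryonic replicates 1 to 3 and at 78.1, 100.1 and 111.5 CPM in the adult replicates 1 to 3. All adult libraries were above all embryonic ones, with a log2 difference, embryonic minus adult, of -0.75 ± 0.15, or 1.69-fold. The log2 difference was -0.62 without embryonic replicate 3 and -0.55 without replicate 3 of both groups. Per kilobase of exon, Tfr2 stood at 0.597, 0.485 and 0.498 of the Tfrc level in the embryonic libraries and at 0.00184, 0.00164 and 0 in the adult ones. Transferrin receptor RNA was thus of both kinds in the embryonic libraries and almost all Tfrc in the adult libraries. Whether both kinds came from the same cells was not tested.

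Steap3, the endosomal ferric reductase (chr1:120190757-120272705, minus strand, ENSMUSG00000026389.16), was low and variable. It was at 2.13, 1.5 and 1.98 CPM in the embryonic and 1.97, 1.04 and 0.657 CPM in the adult replicates 1 to 3. The groups overlapped through adult replicate 1 and embryonic replicate 2, and the log2 difference was 0.61 ± 0.45. It was 0.31 without adult replicate 3, 1.13 without adult replicate 1 and 0.79 without embryonic replicate 2.

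Slc11a2, the endosomal iron transporter DMT1 (chr15:100387898-100425072, minus strand, ENSMUSG00000023030.16), was among the steadiest members. It was at 28.3, 24.9 and 23.7 CPM in the embryonic and at 29.3, 30.1 and 29.2 CPM in the adult replicates 1 to 3. The groups did not overlap but nearly touched, and the log2 difference was -0.21 ± 0.11, or -0.10 without embryonic replicate 3. A share of 6.33% of its exon bases lies in the antisense gene Gm5475, and counting without strand cannot separate the pair.

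Slc11a1 encodes NRAMP1, a metal transporter of phagosome and lysosome membranes best known from macrophages (chr1:74375195-74386062, plus strand, ENSMUSG00000026177.11). It was at 2.13, 4.78 and 2.04 CPM in the embryonic and at 9.43, 6.76 and 8.07 CPM in the adult replicates 1 to 3. Adult libraries were higher without overlap, with a log2 difference of -1.45 ± 0.34, or 2.72-fold. Of 11 tested macrophage markers, 10 were higher in adult libraries and 0 in embryonic ones, led by Lyz2, Mpeg1 and Cd163. Lyz2 was at 142.1, 167.8 and 62.5 CPM in the adult replicates 1 to 3. Further markers, all outside the rule for named genes, varied in level in these libraries. Timd4 had 542, 545 and 198 counts and C1qb had 145, 73 and 47, and both were called higher in adult libraries. Vsig4 had 0, 0 and 1 counts, and Fcgr1, which encodes CD64, had 12, 0 and 2. Vsig4 and Fcgr1 were too low to be tested. In adult replicates 1 to 3, Slc11a1 was at 9.43, 6.76 and 8.07 CPM beside macrophage sums of 200.8, 265.5 and 106.2 CPM. The part of macrophage RNA in the difference was not tested.

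**Figure D2:**
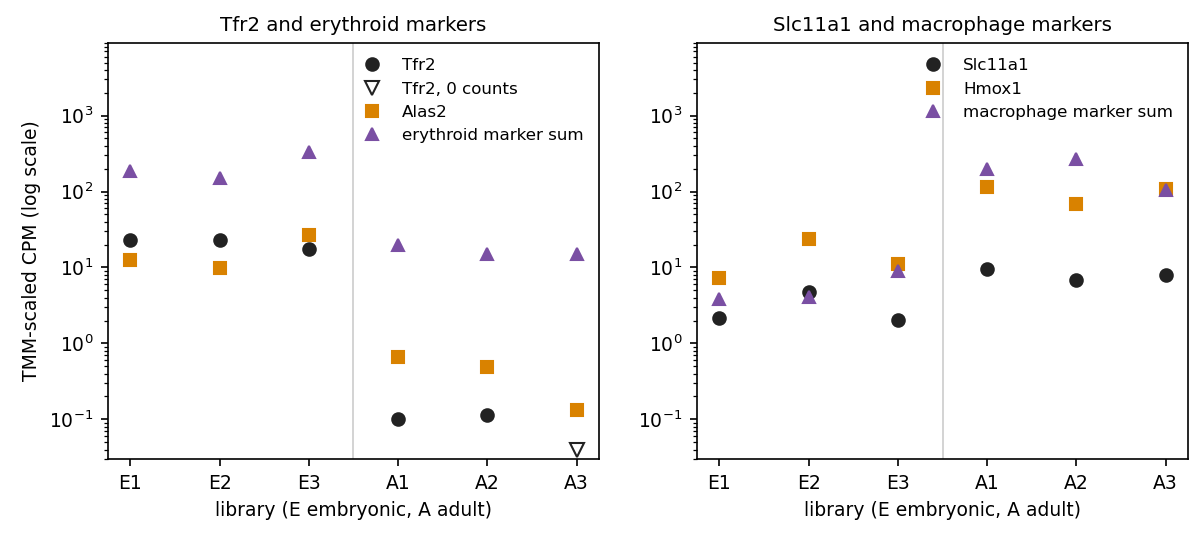
TMM-scaled CPM (log axis) in each embryonic (E) and adult (A) library of Tfr2, Alas2 and the summed erythroid markers (left), and of Slc11a1, Hmox1 and the summed macrophage markers (right); the open triangle is Tfr2 at 0 counts, drawn at an arbitrary height. The erythroid sum is 152.2 to 329.4 CPM in the embryonic and 14.9 to 19.7 CPM in the adult libraries. The macrophage sum is 3.82 to 8.86 CPM in the embryonic and 106.2 to 265.5 CPM in the adult libraries.

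Fth1, the ferritin heavy chain that oxidizes iron for storage (chr19:9982703-9985092, plus strand, ENSMUSG00000024661.6), was the most abundant member. It was at 535.6, 441.0 and 510.8 CPM in the embryonic replicates 1 to 3 and at 1450.5, 1783.8 and 1987.0 CPM in the adult replicates 1 to 3. The lowest adult library had more than any embryonic library, and the log2 difference was -1.81 ± 0.14, or 3.51-fold higher in adult libraries. Per the file headers, reads marked as duplicates were ignored. If duplicates had been marked, that would cap a gene this short and abundant.

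Ftl1, the ferritin light chain that helps iron form a core (chr7:45457945-45459886, minus strand, ENSMUSG00000050708.15), differed far less. It was at 165.7, 162.1 and 201.1 CPM in the embryonic and at 283.7, 214.6 and 202.9 CPM in the adult replicates 1 to 3. Embryonic replicate 3 came within a few CPM of adult replicate 3, and the log2 difference was -0.41 ± 0.14, or 1.33-fold higher in adult libraries. Of its 50-base windows, 86.2% also occur in other annotated genes, against 3.84% for Fth1. Reads that align to several places were not counted, so the Ftl1 level is uncertain and may be understated in every library.

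Per kilobase of exon, the ratio of Fth1 to Ftl1 was 3.62, 3.04 and 2.84 in embryonic and 5.72, 9.3 and 11 in adult replicates 1 to 3. The adult libraries therefore held more heavy chain RNA for each light chain RNA, and they also spread more widely. The ratio of Fth1 to Tfrc, storage against uptake, was 70.1, 47.1 and 72.2 in embryonic and 132.7, 127.2 and 127.3 in adult replicates 1 to 3. It was nearly the same in the 3 adult libraries, although both genes were above their embryonic levels. The ratio of Slc11a2 to Tfrc overlapped between the groups, at 0.504, 0.362 and 0.458 in embryonic and 0.365, 0.293 and 0.255 in adult replicates 1 to 3.

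**Figure D3:**
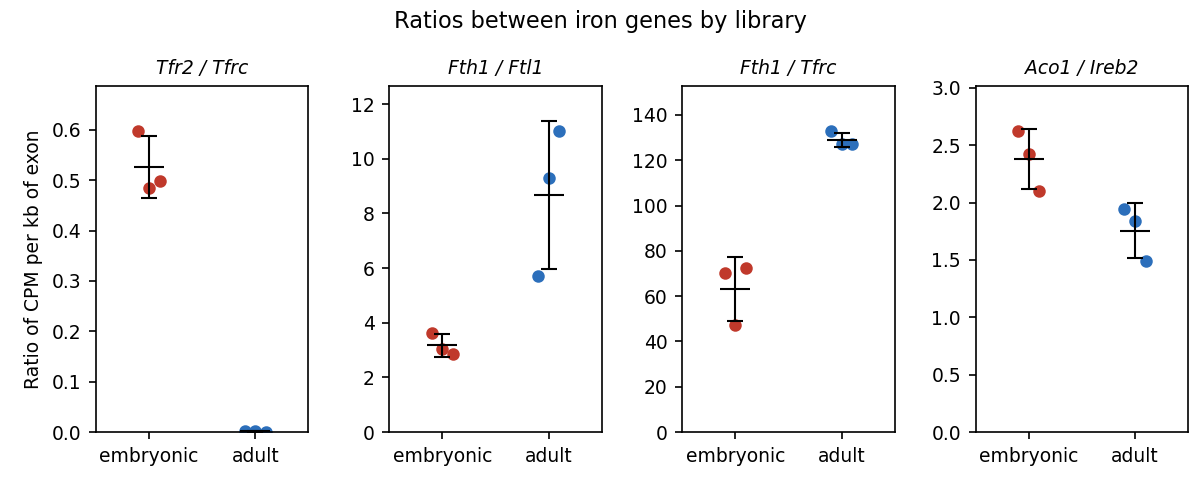
Ratios of CPM per kilobase of exon between pairs of members in each library (points), with group means and SD (n = 3 per group), on linear axes that start at 0. The ratio of Tfr2 to Tfrc is 0.485 to 0.597 in embryonic and at most 0.00184 in adult libraries, and the groups do not overlap in the other 3 ratios plotted.

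Slc40a1, the exporter ferroportin (chr1:45908068-45926523, minus strand, ENSMUSG00000025993.10), was close to the limit of detection. It had 7, 7 and 24 counts in embryonic and 12, 19 and 11 counts in adult replicates 1 to 3, or 0.15, 0.198 and 0.5 CPM against 0.241, 0.438 and 0.289 CPM. The groups overlapped because of embryonic replicate 3. The ratio of summed counts, embryonic over adult, was 0.914 with a 95% exact interval of 0.573 to 1.45 for counting error only. The log2 difference was -0.17 ± 0.62, and -0.84 without embryonic replicate 3, with a change of sign in 3 of the fits without 1 library. No difference was detectable at this depth.

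Aco1 encodes cytosolic aconitase, which becomes the RNA-binding IRP1 when it loses its iron-sulfur cluster (chr4:40143081-40198338, plus strand, ENSMUSG00000028405.9). It was at 93.4, 87.6 and 77.5 CPM in the embryonic and at 51.4, 60.7 and 54.5 CPM in the adult replicates 1 to 3. The groups did not overlap, and embryonic libraries were higher by a log2 difference of 0.63 ± 0.11, or 1.55-fold. Ireb2, which encodes IRP2 and is known to be controlled mainly through breakdown of the protein (chr9:54863755-54912534, plus strand, ENSMUSG00000032293.7), was at 46.0, 46.7 and 47.8 CPM in the embryonic libraries. It was at 34.3, 42.6 and 47.3 CPM in the adult replicates 1 to 3. Adult replicate 3 fell within the embryonic range, and the log2 difference was 0.18 ± 0.13. Per kilobase, Aco1 exceeded Ireb2 by 2.62, 2.42 and 2.1 times in embryonic and by 1.94, 1.84 and 1.49 times in adult replicates 1 to 3.

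Ordered by level per kilobase of exon, the embryonic means ran from Fth1 (572.5 CPM per kb) through Ftl1 (181.9), Aco1 (19.2), Tfrc (9.27), Ireb2 (8.06), Tfr2 (4.86), Slc11a2 (4.03), Slc11a1 (0.805) and Steap3 (0.327) to Slc40a1 (0.0314). The library ranges of the neighbours Tfrc and Ireb2 overlapped, as did those of Tfr2 and Slc11a2. The adult order was Fth1 (2009.7 CPM per kb), Ftl1 (241.2), Tfrc (15.6), Aco1 (12.4), Ireb2 (7.13), Slc11a2 (4.65), Slc11a1 (2.18), Steap3 (0.214), Slc40a1 (0.0359) and Tfr2 (0.0166). There the ranges of Tfrc and Aco1 overlapped. The main move in rank was that of Tfr2, from the middle of the embryonic order to the last place of the adult order.

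The 3 genes with the 6-library profile closest to that of Tfr2 were Gdf3, a TGF-beta family ligand, Ston2, an endocytic adaptor, and Cmah, an enzyme of sialic acid synthesis. Their root mean square distances to Tfr2, on centred log2(CPM + 0.1) values, were 0.151, 0.202 and 0.345. Gdf3 was at 19.3 to 25.9 CPM in the embryonic and at 0.0263 to 0.138 CPM in the adult libraries.

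The wider iron pathway was read from 93 other genes, of which 10 were filtered out with 0 to 44 counts in all libraries together. Of the 83 tested with edgeR's quasi-likelihood test (Benjamini-Hochberg adjusted p under 0.05), 32 were higher in embryonic libraries and 29 in adult libraries, and 22 did not pass. These are 38.6% and 34.9% of the list, beside 31.2% and 31.7% of all genes tested, called the background below. The list had a median log2 difference of 0.03, and groups within it differed in direction. All lists were chosen with earlier results of these data known, so nothing is read from their counts.

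Of 13 tested genes of iron uptake, 5 (38.5%) were higher in embryonic and 7 (53.8%) in adult libraries (background 31.2% and 31.7%). The ferric reductases went opposite ways. Cybrd1, the plasma membrane reductase first known from the gut, was at 77.3 ± 2.72 CPM in the embryonic and 15.9 ± 0.877 CPM in the adult libraries (SD, n = 3 per group; 4.85-fold; edgeR adjusted p = 8.3e-08). Steap4 was 12.6-fold higher in adult libraries at a low level, 1.19 ± 0.614 against 0.0909 ± 0.094 CPM (edgeR adjusted p = 0.0046), and the fold was 8.27 without embryonic replicate 1, 28.5 without embryonic replicate 3, 36.5 without replicate 3 of both groups and 19.1 with limma-voom. Trf, transferrin itself, was 4.41-fold higher in embryonic libraries (7.92 ± 1.78 against 1.78 ± 0.838 CPM; edgeR adjusted p = 0.00091). Mcoln1, the lysosomal channel that lets iron out to the cytosol, was 1.64-fold higher in adult libraries (edgeR adjusted p = 0.0016).

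Of 4 tested genes of ferritin handling, 1 was higher in embryonic and 2 in adult libraries. Ncoa4, the receptor that takes ferritin to the lysosome for breakdown, was at 25.3, 19.5 and 13.4 CPM in the embryonic and 45.3, 45.7 and 53.6 CPM in the adult replicates 1 to 3. It was higher in all adult libraries, 2.49-fold (edgeR adjusted p = 5.7e-04), as was Herc2, a ubiquitin ligase that acts on NCOA4, 1.46-fold (edgeR adjusted p = 0.0022). Pcbp1, a chaperone that delivers iron to ferritin, was 1.81-fold higher in embryonic libraries (edgeR adjusted p = 4e-05). The genes of ferritin, its delivery and its breakdown thus did not move one way.

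Among 6 tested genes of export and systemic control, 1 (16.7%) was higher in embryonic and 2 (33.3%) in adult libraries (background 31.2% and 31.7%). These 3 genes were below 2 CPM in every library. Ceruloplasmin (Cp), a ferroxidase that works with ferroportin, was at 0, 0.142 and 0.167 CPM in the embryonic and 1.03, 1.38 and 1.71 CPM in the adult replicates 1 to 3. It was 13.2-fold higher in adult libraries (edgeR adjusted p = 0.0023), 8.55-fold without embryonic replicate 1, 19.9-fold without embryonic replicate 3 and 20.5-fold with limma-voom. Bmp6, which drives hepcidin in the liver, was 7.22-fold higher in adult libraries (edgeR adjusted p = 0.0047). Erfe, the hepcidin-lowering hormone of erythroblasts, was 3.38-fold higher in embryonic libraries (edgeR adjusted p = 0.029), and this call was lost without embryonic replicate 1 (0.088), embryonic replicate 2 (0.088), adult replicate 1 (0.1) or adult replicate 3 (0.054).

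Of 11 regulators and known or proposed targets of the IRPs, 3 (27.3%) were higher in embryonic and 5 (45.5%) in adult libraries. The background was 31.2% and 31.7%, and the adult calls were 3 without embryonic replicate 2 or without embryonic replicate 3. Alas2, a known 5′ UTR target in this list, matched the hairpin search.
Alas2 5′ UTR, chrX:150547459-150547485, plus strand: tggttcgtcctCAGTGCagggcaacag
Cdc14a, a phosphatase, was 2.44-fold higher in embryonic libraries (edgeR adjusted p = 3.8e-06). Cdc42bpa, a kinase, was 3.13-fold higher in adult libraries (edgeR adjusted p = 1.1e-05), and Hif1a, the hypoxia factor, was 1.5-fold higher there (edgeR adjusted p = 6e-04).

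Heme synthesis consumes iron in its last step. Of 9 tested genes of the pathway, 7 (77.8%) were higher in embryonic and 1 (11.1%) in adult libraries (background 31.2% and 31.7%). Their median log2 difference was 0.81, against -0.02 for all genes tested. The erythroid sum (152.2 to 329.4 against 14.9 to 19.7 CPM) and the cycling sum (982.5 to 1194.2 against 105.6 to 153.5 CPM) were higher in embryonic libraries too, and their part in this list was not tested. Cpox, which acts late in the pathway, was at 46.0 ± 6.82 CPM in the embryonic and 10.9 ± 0.54 CPM in the adult libraries (SD, n = 3 per group; 4.21-fold; edgeR adjusted p = 9.6e-07). Fech, ferrochelatase, which inserts the iron, was 2.15-fold higher in embryonic libraries (edgeR adjusted p = 3.5e-05) and was chosen after its values were seen. Urod, outside the rule for named genes, was called higher in embryonic libraries, but not without adult replicate 2 (edgeR adjusted p = 0.061).

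The first enzyme of the pathway has 2 genes, which went opposite ways. Alas1, the form made in all tissues, was at 14.7, 14.1 and 15 CPM in the embryonic and 68.5, 86.5 and 86.3 CPM in the adult replicates 1 to 3 (5.51-fold higher in adult libraries; edgeR adjusted p = 1.6e-07). Alas2, the erythroid form, listed here with the IRP targets, was at 12.7, 9.97 and 26.5 CPM in the embryonic and 0.663, 0.484 and 0.131 CPM in the adult replicates 1 to 3. It was 37.2-fold higher in embryonic libraries (edgeR adjusted p = 1.6e-04), or 19.6-fold without replicate 3 of both groups, and its values were seen before it was chosen. The erythroid sum was 184.9, 152.2 and 329.4 CPM in the embryonic replicates 1 to 3. The part of erythroid RNA in the Alas2 difference was not tested.

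Of 12 tested genes of heme breakdown and transport, 1 (8.33%) was higher in embryonic and 8 (66.7%) in adult libraries (background 31.2% and 31.7%). Their median log2 difference was -1.35, against -0.02 for all genes tested. Pgrmc1, a heme-binding membrane protein, was at 151.5 ± 12.8 CPM in the embryonic and 891.6 ± 150.5 CPM in the adult libraries (SD, n = 3 per group; 5.89-fold; edgeR adjusted p = 3.2e-07). Hmox1, heme oxygenase, which frees iron from heme, was at 7.3, 23.4 and 11 CPM in the embryonic and 115.6, 67.7 and 108.6 CPM in the adult replicates 1 to 3. It was 7.06-fold higher in adult libraries (edgeR adjusted p = 0.0033), a call lost without replicate 3 of both groups (0.13). The heme exporter Flvcr1 was 4.82-fold higher in adult libraries (edgeR adjusted p = 4.4e-06). Hmox1 and Flvcr1 were chosen after their values were seen. Blvrb, outside the rule for named genes, was called higher in adult libraries, but not without embryonic replicate 2 (edgeR adjusted p = 0.054). Slc46a1, a folate and heme importer, was the 1 gene higher in embryonic libraries, 2.41-fold (edgeR adjusted p = 0.0014).

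Macrophages are known for clearing heme. In adult replicates 1 to 3, Hmox1 was at 115.6, 67.7 and 108.6 CPM beside macrophage sums of 200.8, 265.5 and 106.2 CPM. Cd163, the macrophage receptor for hemoglobin, belongs to both lists. Its counts came to 6 over the embryonic and 2010 over the adult libraries (15.6 ± 2.77 CPM, SD, n = 3). By adult replicate 1 to 3, Cd163 was at 12.6, 16.1 and 18.0 CPM. The fitted fold was 319.9 (edgeR adjusted p = 6.1e-07) and 998.8 without embryonic replicate 3, or 952.3 without replicate 3 of both groups. The part of macrophage RNA in these differences was not tested.

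**Figure D4:**
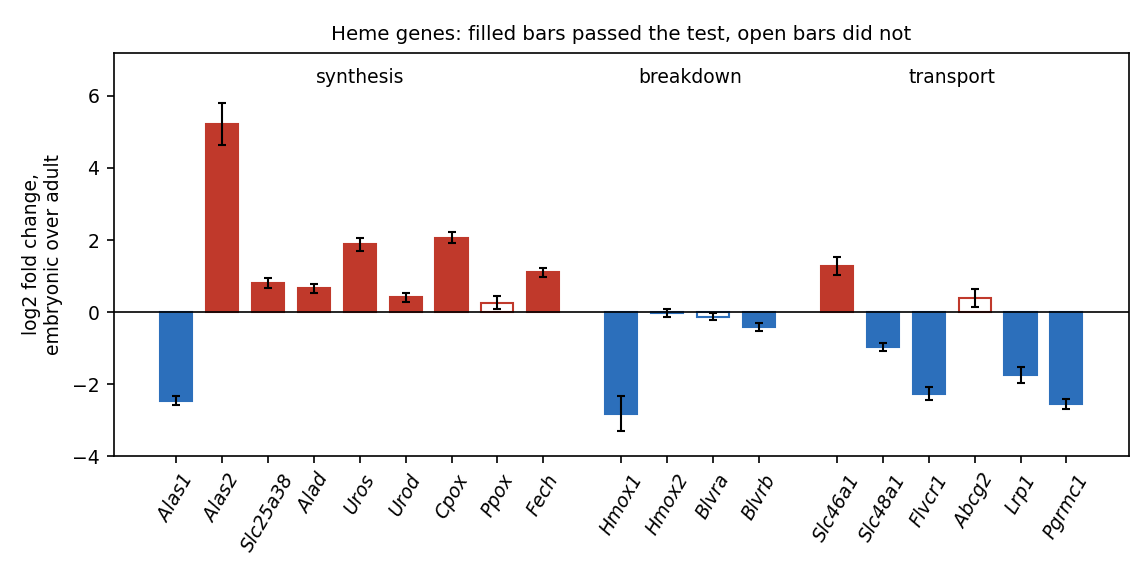
Log2 fold change, embryonic over adult, of selected genes of heme synthesis in pathway order, heme breakdown and heme transport (bars, with SE, 3 libraries per group); red is higher in embryonic and blue in adult libraries, and filled bars passed the edgeR test at an adjusted p of 0.05. Most synthesis genes after the first step lie above 0, while Alas1, Hmox1, Flvcr1 and Pgrmc1 lie below 0.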

How the data were processed

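RNA was measured in 6 libraries, 3 per group. The deposited table holds read counts for each gene. According to the file headers, they were made with featureCounts 1.5.0-p1 from exon reads with GENCODE M9, without strand (setting 0), ignoring reads marked as duplicates and reads that map to several places. Per the submitters' processing notes, reads were aligned with STAR to GRCm38 and edgeR served for the tests. For both tools the version is not given in the sources used here, nor is any marking of duplicates. Per the labels' protocols, cDNA was full-length, amplified by PCR and tagmented. The kit does not mark strand and reads have no molecular identifiers; intervals cover counting error only.

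Symbols came by gene ID from GENCODE M21, with 47224 IDs matched and 419 not. Older symbols of 4 listed genes were matched through RefSeq synonyms. No column was left out (0 columns of other samples). Exon length was used as deposited, and CPM used TMM-scaled sizes. Counts were fitted with edgeR 4.0.16 in R 4.3.3 (filterByExpr with a minimum count of 10, robust quasi-likelihood, Benjamini-Hochberg over 15111 genes, threshold 0.05). The biological coefficient of variation was 22.5%. The fit was tested on simulated data.

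The members and all lists were chosen with earlier results of these data known. The text names the members, up to 2 genes per direction with the smallest adjusted p in each of 7 lists of other iron genes, the 3 most abundant markers of a cell type, and the 3 profiles nearest to Tfr2. Genes outside this rule are named as such or shown in a plot, and some genes that it named are not reported here. Alternatives were RLE and upper quartile scaling, other filters, DESeq2 1.42.0, limma-voom (limma 3.58.1), a replicate block, edgeR without robust estimation, each library left out, a 2-fold threshold and ferritin copies added.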

Additional observations from a re-analysis of the deposited data

How the results depend on the processing

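Over the alternatives run, 8509 to 10500 genes were called in all, against 9519. Of the other iron genes, 32 were called in the embryonic and 29 in the adult direction, and with at least a 2-fold difference 15 and 15. Same-numbered libraries did not deviate together (correlations of -0.122, -0.0791 and -0.133). As these are deviations from means of 3 libraries, they cannot show whether the numbers pair the samples. With the replicate number as a block, 8848 genes were called in all, and 26 of the other iron genes in the adult direction, and Erfe no longer passed (edgeR adjusted p = 0.073). Between 7 and 8 members did not overlap between groups when 1 library was left out, and 9 without replicate 3 of both groups, a choice made after seeing the data. The Slc40a1 log2 difference ranged from -0.96 to 0.16, that of Tfr2 from 7.58 to 8.49 and that of Fth1 from -1.93 to -1.68. Adult calls in the iron-sulfur list were 4, and 2 without adult replicate 3, and those in the export list were 2, and 1 among genes with at least 1 CPM in 3 libraries. The cause of these shifts was not tested. Depth limits the low values: Slc40a1 had 38 embryonic and 42 adult counts in all, Tfr2 had 10 adult counts, and Bmp6 had 6 embryonic counts.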

Other observations

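Mitochondria use iron to build heme and iron-sulfur clusters, and 28 genes of iron import, cluster assembly and cluster delivery were tested. Of these, 14 were higher in embryonic and 4 in adult libraries, the latter 2 without adult replicate 3, with a median log2 difference of 0.35. Abcb8, a transporter of the inner membrane, was at 54.6 ± 4.74 CPM in the embryonic and 12.7 ± 0.62 CPM in the adult libraries (SD, n = 3 per group; 4.29-fold; edgeR adjusted p = 3e-07). Ciao2a, a cytosolic assembly factor known to act on IRP1, was 3.87-fold higher in embryonic libraries (edgeR adjusted p = 4.5e-07). In the adult direction, the iron importer mitoferrin-2 (Slc25a28) was 2.7-fold higher (22.5 ± 3.83 against 60.8 ± 11.6 CPM; edgeR adjusted p = 5.5e-05), and Abcb10 was 1.4-fold higher (edgeR adjusted p = 0.0035).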
